A study of Homo sapiens with 101 samples.

Results

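The aldo-keto reductases described here are AKR1A1, AKR1B1, AKR1B10, AKR1C1, AKR1C2, AKR1C3 and AKR7A2, and they were chosen by name, with every probe set that the array's annotation gives to them. Of these 7 genes 5 had a probe set named to them, among 19774 genes with a name on the whole array, and AKR1A1 and AKR1B1 are not analysed here. The 5 genes had 13 probe sets, 12 named to 1 gene and 1, 1555854_PM_at, shared by AKR1C1 and AKR1C2. Of the 13, 10 had a mean log2 signal of 4 or more in at least 1 of 17 groups and were tested. The other 3 stayed under 4 in every group, namely 217626_PM_at and 244266_PM_at of AKR1C1 and 1560098_PM_at of AKR1C2, with a highest group mean of 3.98, 2.95 and 2.67.

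The cells were HT1080, a human fibrosarcoma line, given 1 dose of 1 of 11 compounds that the series text ties to an increase of 1.5-fold in total p53 protein. Dosing began 24 hours after seeding, from stocks in DMSO, and all groups were at 0.1% vehicle, per the labels' protocols. The exposure time is not given in the sources used here. The DNA cross-linker mitomycin C (label MMC, 0.1 µM), hydrogen peroxide (H2O2, 100 µM), the DNA-breaking antibiotic neocarzinostatin (NCS, 10 ng/ml), the alkylating agent ethylnitrosourea (ENU, 2 mM), the compound labelled GAD (2 mM) and the phenolic antioxidant tert-butylhydroquinone (tBHQ, 200 µM) all have DMSO_pooled as their control, a tie that was inferred, since no label states it, nor what was pooled. The compound labelled BRO (600 µM), the alkylating agent methyl methanesulfonate (MMS, 200 µM), the plant polyphenol curcumin (CUR, 10 µM), the topoisomerase inhibitor etoposide (ETP, 0.3 µM) and the flavonoid quercetin (QUE, 30 µM) were set against BRO_DMSO, MMS_CTL, CUR_DMSO, ETP_DMSO and QUE_DMSO. There were 6 replicates in each group except MMC and H2O2, which had 5.

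Aldo-keto reductases use NADPH to reduce aldehydes and ketones to alcohols. AKR1B10 reduces retinal and reactive aliphatic aldehydes, AKR1C1, AKR1C2 and AKR1C3 reduce ketosteroids and prostaglandins as well as xenobiotic carbonyls, and AKR7A2 reduces succinic semialdehyde and the dialdehyde of aflatoxin. Several of these genes, AKR1B10 and the AKR1C genes among them, are known targets of NRF2, a transcription factor that the adaptor KEAP1 holds at a low level until electrophiles or oxidants modify KEAP1, and that then binds antioxidant response elements.

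The AKR1C genes lie beside one another on chromosome 10 and are near copies, which limits what a hybridised probe can tell apart. The promoter windows below, from 250 bases before to 50 bases after the start of the gene in the RefSeq table for GRCh38.p14, show how close AKR1C1 (chr10:4963165-4963464, plus strand) and AKR1C2 (chr10:5003808-5004107, minus strand) are. Capitals mark the 12 bases in each window that differ from the other gene or have no partner in it.
AKR1C1: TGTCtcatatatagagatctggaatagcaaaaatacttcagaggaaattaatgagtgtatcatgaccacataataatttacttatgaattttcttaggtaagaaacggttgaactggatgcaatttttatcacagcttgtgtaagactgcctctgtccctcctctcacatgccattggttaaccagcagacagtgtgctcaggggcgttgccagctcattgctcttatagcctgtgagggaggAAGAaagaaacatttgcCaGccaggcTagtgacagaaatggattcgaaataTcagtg
AKR1C2: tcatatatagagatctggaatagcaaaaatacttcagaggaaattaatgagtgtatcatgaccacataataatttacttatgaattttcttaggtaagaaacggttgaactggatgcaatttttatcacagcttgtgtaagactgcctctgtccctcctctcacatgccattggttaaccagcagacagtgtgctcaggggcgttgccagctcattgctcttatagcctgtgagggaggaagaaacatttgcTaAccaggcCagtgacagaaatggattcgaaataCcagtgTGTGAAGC
Over 292 aligned bases they were 98.6% identical, with 4 mismatches. The AKR1C1 window was 78.0% and 79.5% identical to the 2 windows listed for AKR1C3 (chr10:5048531-5048830 and chr10:5094164-5094463). The core of the antioxidant response element, TGACNNNGC on either strand, was in 13.3% of 35116 promoter windows of this length. It was in neither the AKR1C1, the AKR1C2 nor the AKR1C3 windows, nor in those of AKR1A1 and AKR1B1, while the AKR7A2 windows held it 3 times. Of 18 NRF2 target genes with a window, from the list used below, 6 held it. The AKR7A2 window at chr1:19312095-19312394 (minus strand) is shown with the matches in capitals. Whether the element bears on any change was not tested.
AKR7A2: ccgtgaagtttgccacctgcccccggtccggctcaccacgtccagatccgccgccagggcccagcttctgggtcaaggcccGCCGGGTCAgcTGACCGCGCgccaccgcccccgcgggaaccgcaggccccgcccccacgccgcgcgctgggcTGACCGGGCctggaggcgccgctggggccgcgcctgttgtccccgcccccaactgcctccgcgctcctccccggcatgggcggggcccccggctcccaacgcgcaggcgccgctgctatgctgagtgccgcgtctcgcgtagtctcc
No window of AKR1B10 was used. A match is a run of letters and not a measured binding site, and these windows do not cover elements farther away. No probe or transcript sequence was compared, so the identity of these windows does not measure what a probe tells apart.

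Some libraries stood apart and bear on the values below. The differences of each ETP and QUE library from the mean of its control were correlated over 25479 probe sets with the mean difference of the other libraries of ETP and of QUE, leaving out the number-2 library of each compound. The library labelled ETP replicate 2 had r = 0.90 with QUE and 0.18 with ETP, and the library labelled QUE replicate 2 had r = 0.11 with QUE and 0.60 with ETP. Between these 2 compounds, every other ETP and QUE library had the higher r with its own label. Of 64 compound libraries 17 correlated best with a compound other than their own, most of them of MMC, NCS and H2O2, which share a control and had few probe sets called. The rest were ETP replicates 1, 2, 3 and 4, QUE replicate 2 and CUR replicate 5. Over all compounds QUE replicate 2 was closest to NCS (r = 0.74). CUR replicate 5 had r = 0.28 with tBHQ and 0.11 with CUR. The libraries labelled QUE replicate 2 and ETP replicate 2 went against their labels by the widest margins within these 2 groups, so the ETP and QUE results that rest on them are given with and without them. In AKR1B10 the library DMSO_pooled replicate 2 was far above the other controls of its group, and in AKR1C1 and AKR1C2 the library ENU replicate 2 was far above the rest of ENU. The 6 sets of arrays differed in level, with array medians of 2.88 to 3.52, lowest for BRO and highest for ETP, so levels are compared within a set only. The median log2 fold change of all tested probe sets was between -0.02 and 0.07 in every comparison. All 5 mesenchymal markers (VIM, FN1, CD44, COL6A1 and S100A6) were at 7.51 or more in every group, and the 9 epithelial, leukocyte and endothelial markers were under 4 in every group. No label says that replicates were separate cultures, so every p-value rests on the spread between these libraries, which may be technical, and the number of arrays limits the precision. The RNA is from bulk cultures, in which a change in every cell and a change in some cells cannot be told apart.

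Of the 10 tested probe sets, 1562102_PM_at and 1555854_PM_at reached a mean of 4 only in GAD and tBHQ, so they entered the test through the groups in which they were high, and they are described apart. The other 8 had a mean of 4 or more in at least 1 control group. Across 88 combinations of these 8 and a compound, 38 were called higher than the control, 0 lower and 50 neither. A call needed an adjusted p under 0.05 in limma (Benjamini-Hochberg over 25479 probe sets) and a change of at least 1.5-fold. At an unadjusted p under 0.05, 47 values were higher and 7 lower, and the 7 were all of AKR7A2. The shares of the whole array at this unadjusted p were not counted, so these numbers are a description only.

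GAD, tBHQ, BRO, MMS and CUR each had 6 of 8 probe sets called higher, against a share of called probe sets over the whole array of 13.4% for GAD, 5.11% for tBHQ, 4.36% for MMS, 3.14% for BRO and 1.05% for CUR. QUE had 5 of 8 against 7.09%, ENU 2 of 8 against 4.78% and ETP 1 of 8 against 1.46%. Of the 8, 4 were probe sets of AKR1C1 and AKR1C2 that could not be told apart here (r from 0.9885 to 0.9985 over compounds). All 4 were called in GAD, tBHQ, BRO, MMS, CUR and QUE, so these counts are not of separate members. MMC, NCS and H2O2 had 0 of 8, against 0.0863%, 1.08% and 0.495%, with 1, 2 and 2 at an unadjusted p under 0.05. Over the array the share called lower was 5.76% for QUE, 5.53% for MMS, 5.41% for ENU, 4.47% for tBHQ, 3.85% for BRO, 0.828% for NCS, 0.652% for ETP, 0.569% for CUR, 0.133% for H2O2 and 0.00392% for MMC, and for GAD it was 13.4%, as for higher.

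Each of the 38 calls was of AKR1B10 or an AKR1C gene, as the map of fold changes shows. Without the library labelled QUE replicate 2, QUE had 6 of 8 called higher (9.97% of all probe sets), and without the library labelled ETP replicate 2, ETP had 1 (1.93%). In 33 of the 38 calls every replicate of the compound was above every control. The share with such separation among all called probe sets was not counted, so this number is a description only. With the 2 dim probe sets the calls came to 45 of 110, but 3 of the added calls, both of these in BRO and 1555854_PM_at in QUE, had both group means under 4, taken here as not well above background, and nothing is read from them.

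**Figure D1:**
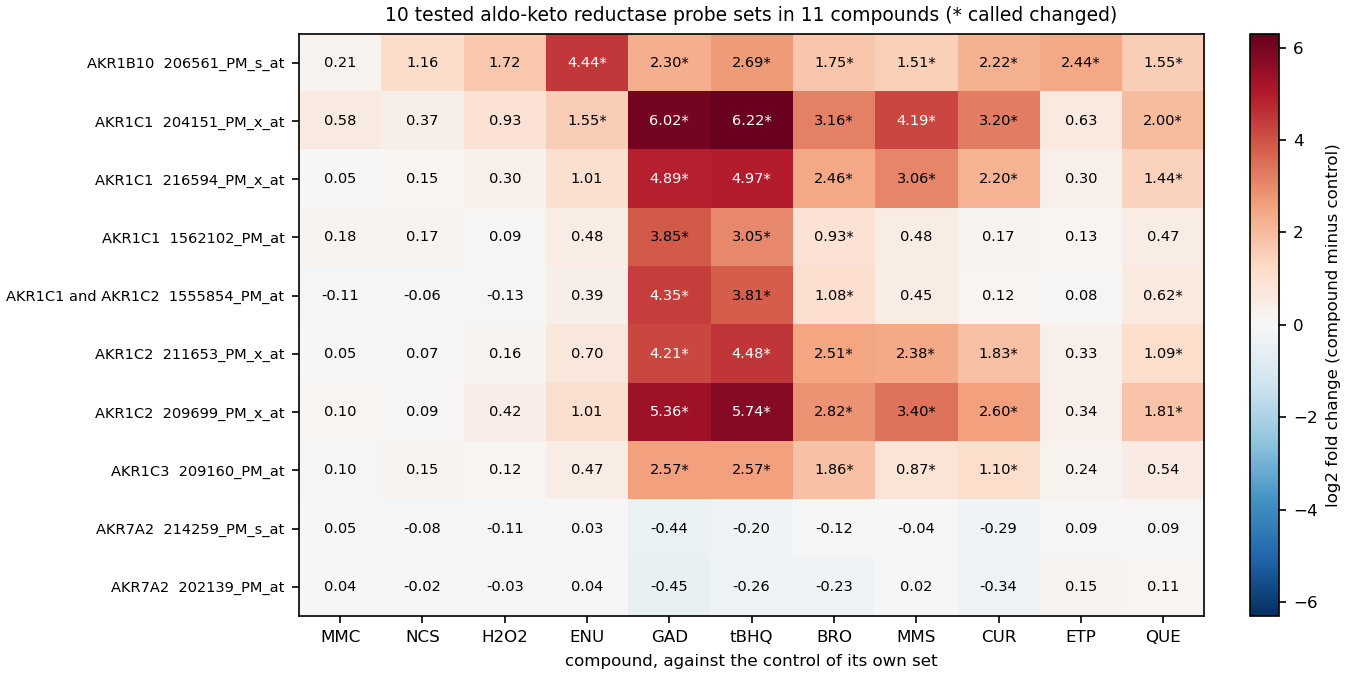
Log2 fold change (compound minus control) of the 10 tested probe sets in rows for 11 compounds in columns, on a colour scale from blue for lower to red for higher, with an asterisk where the value passed the call, the 2 dim probe sets included. The AKR1C rows are deepest in GAD and tBHQ, up to 6.22, the AKR1B10 row is deepest in ENU at 4.44, and both AKR7A2 rows lie between -0.45 and 0.15.

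AKR1B10, measured only by 206561_PM_s_at, whose probe sequences were not examined, was higher than the control in 8 of 11 compounds. It is hardly present in normal tissue outside the gut and is raised in several carcinomas. In ENU its log2 signal had a lowest, median and highest value of 8.49, 8.84 and 9.74, against 3.68, 4.27 and 6.67 in DMSO_pooled. All 6 ENU libraries were above every control, and the 6.67 was DMSO_pooled replicate 2, with the other 5 controls at 4.40 or less. The log2 fold change was 4.44 ± 0.42 (SE; adjusted p = 8.7e-06 in limma), or 21.8-fold, and 4.87 without that control library. tBHQ had 6.69, 7.32 and 7.69, all above every control (2.69 ± 0.40, adjusted p = 0.00032, or 3.11 without DMSO_pooled replicate 2). GAD had 5.94, 7.04 and 7.36, with 4 of 6 libraries above every control and all 6 above the other 5 controls (2.30 ± 0.42, adjusted p = 0.00035, or 2.72 without it).

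The other compounds set against DMSO_pooled gave smaller differences in AKR1B10, and none of the 3 was called. The 5 H2O2 libraries were at 6.16, 6.36, 6.09, 6.52 and 6.23, below DMSO_pooled replicate 2 and above the other 5 controls. The difference was 1.72 ± 0.42 (adjusted p = 0.079), and without DMSO_pooled replicate 2 it was 2.14 (adjusted p = 0.00015, with 0.447% of all probe sets called higher). NCS had 5.21, 5.76 and 6.05, likewise between that library and the rest (1.16 ± 0.39, adjusted p = 0.11, and 1.58 without it, adjusted p = 0.00045, with 0.981% called). With the replicate number as a block NCS was called (1.16, adjusted p = 0.033) and H2O2 was not (1.65, adjusted p = 0.057), and in 1 fit of all 17 groups both were called (NCS adjusted p = 0.0033, H2O2 adjusted p = 2.1e-05). The 5 MMC libraries were at 4.95, 5.14, 5.04, 3.89 and 4.79, which overlapped the controls with and without that library. Their difference was 0.21 ± 0.45 (95% interval -0.76 to 1.18), and 0.63 without DMSO_pooled replicate 2 (adjusted p = 0.64).

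In the 5 sets with a control of their own, AKR1B10 was higher in every library of the compound than in any control. ETP had 5.49, 6.86 and 7.06, against 3.86, 4.14 and 4.51 in ETP_DMSO (2.44 ± 0.24, adjusted p = 9.9e-05, and 2.36 without the library labelled ETP replicate 2). The lowest ETP library, replicate 3, was almost 1 log2 unit below the next, which was at 6.48. CUR had 5.63, 5.89 and 6.64, against 3.31, 3.68 and 4.47 in CUR_DMSO, whose mean of 3.79 was not well above background. The means differed by 2.22 ± 0.21 (adjusted p = 0.00013), and against the level of 4 the rise was at least 4.05-fold. BRO had 5.45, 5.73 and 6.62, against 3.48, 4.01 and 4.67 in BRO_DMSO (1.75 ± 0.22, adjusted p = 0.00019). QUE had 5.37, 5.76 and 6.12, against 3.93, 4.11 and 4.61 in QUE_DMSO (1.55 ± 0.15, adjusted p = 0.00033). Its highest library was the one labelled QUE replicate 2, without which the difference was 1.48. MMS had 5.36, 5.70 and 6.24, against 3.50, 4.31 and 4.73 in MMS_CTL (1.51 ± 0.21, adjusted p = 0.00022).

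**Figure D2:**
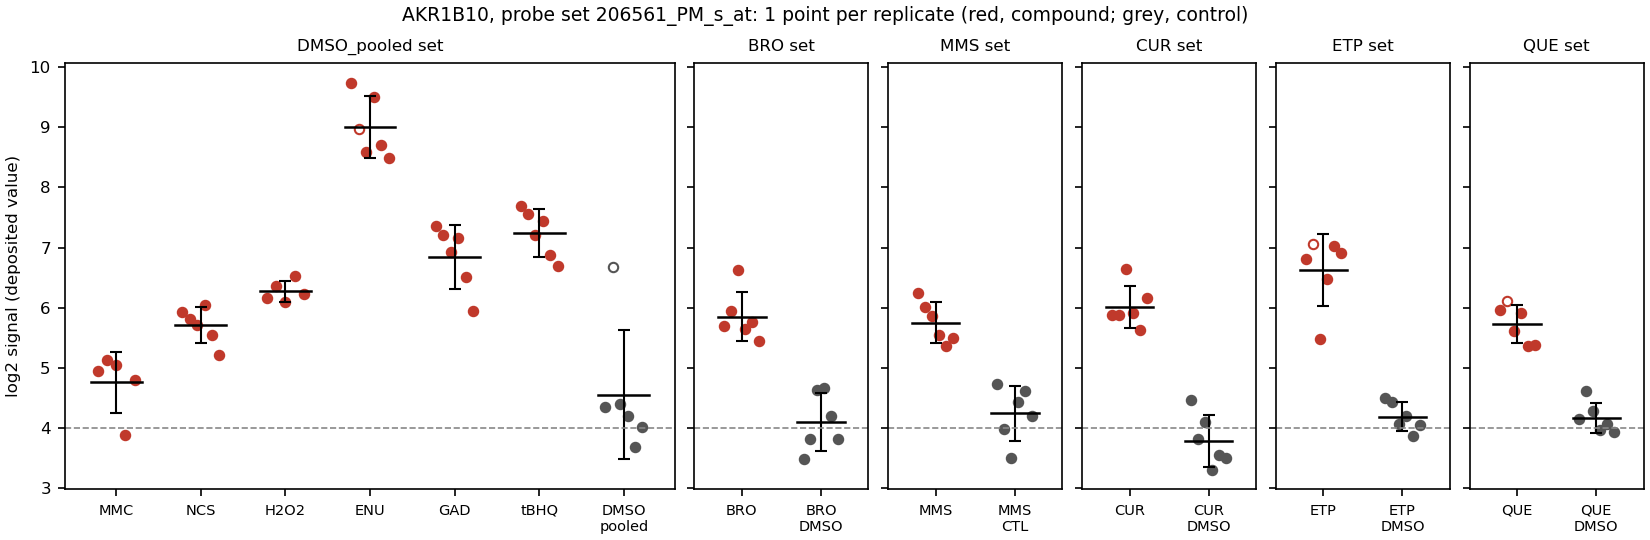
Log2 signal of AKR1B10 in every replicate, with compounds in red and left of their control in grey, 1 panel for each set of arrays, bars for mean ± SD, a dashed line at 4, and open circles for ENU replicate 2, DMSO_pooled replicate 2 and the libraries labelled QUE replicate 2 and ETP replicate 2. The 6 ENU libraries lie from 8.49 to 9.74, and DMSO_pooled replicate 2 lies at 6.67 above the other 5 controls.

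Ordered by log2 fold change, AKR1B10 ran ENU, tBHQ, ETP, GAD, CUR, BRO, H2O2, QUE, MMS, NCS and MMC. Neighbours in that order were compared in 1 fit of all 17 groups, although the levels of the sets differ. The effects of ENU and tBHQ differed by 1.76 ± 0.27 (adjusted p = 8.6e-08, with 17.2% of all probe sets called between these compounds), and both share DMSO_pooled, so its replicate 2 does not enter this difference. None of the other 9 neighbouring pairs was called, with differences from 0.03 to 0.95. BRO and H2O2 differed by 0.03 (95% interval -0.75 to 0.81), and CUR and BRO by 0.48 (-0.28 to 1.24), so differences of that size were not detectable. NCS and MMC differed by 0.95 (95% interval 0.39 to 1.51, adjusted p = 0.12). The shares of all probe sets called were 9.58% for ETP and tBHQ, 26% for ETP and GAD, 19.2% for CUR and GAD, 3.65% for BRO and CUR, 5.1% for BRO and H2O2, 9.3% for H2O2 and QUE, 17% for MMS and QUE, 14.7% for MMS and NCS and 0.287% for MMC and NCS. Without the libraries labelled QUE replicate 2 and ETP replicate 2, QUE and MMS changed places and again only ENU and tBHQ were called.

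AKR1C1, whose product turns progesterone into a less active steroid, had the probe set with the largest changes of the family. Its brightest probe set, 204151_PM_x_at, carries the suffix that marks probes matching several transcripts, as do 216594_PM_x_at of AKR1C1 and 211653_PM_x_at and 209699_PM_x_at of AKR1C2. In tBHQ 204151_PM_x_at had a lowest, median and highest log2 signal of 10.60, 11.43 and 11.85, against 4.92, 5.17 and 5.45 in DMSO_pooled. GAD had 10.81, 11.27 and 11.45 against the same controls. Both groups lay far above every control, with log2 fold changes of 6.22 ± 0.18 in tBHQ (adjusted p = 1.4e-10, 74.3-fold) and 6.02 ± 0.12 in GAD (adjusted p = 1.2e-12, 64.9-fold). The other bright AKR1C1 probe set, 216594_PM_x_at, gave 4.97 in tBHQ and 4.89 in GAD. For AKR1C2, 209699_PM_x_at gave 5.74 and 5.36, so the 2 genes are not ranked here.

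AKR1C1 was also higher in MMS, CUR and BRO. MMS had 8.86, 9.41 and 9.59, against 4.26, 5.14 and 6.03 in MMS_CTL (4.19 ± 0.28, adjusted p = 7.5e-07, 18.3-fold). CUR had 8.25, 8.78 and 9.06, against 5.07, 5.22 and 7.08 in CUR_DMSO (3.20 ± 0.30, adjusted p = 0.00014, 9.20-fold). BRO had 7.07, 8.34 and 9.09, against 4.69, 5.01 and 5.27 in BRO_DMSO (3.16 ± 0.31, adjusted p = 3.6e-05, 8.97-fold). The groups did not overlap in any of these sets, although CUR_DMSO replicate 3, at 7.08, was well above the other controls of its set, which were at 5.58 or less.

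QUE and ENU also passed the call in AKR1C1, each with 1 library far from its group. QUE had 5.71, 8.41 and 8.71, against 5.42, 5.81 and 7.21 in QUE_DMSO (2.00 ± 0.47, adjusted p = 0.0097). The 5.71 was the library labelled QUE replicate 2, and the other 5 libraries, at 8.07 or more, were above every control. Without it the difference was 2.46 ± 0.28 (adjusted p = 2.9e-05). ENU had 5.68, 6.23 and 9.68, against 4.92, 5.17 and 5.45 in DMSO_pooled (1.55 ± 0.52, adjusted p = 0.039). The 9.68 was ENU replicate 2, and the other 5 were at 6.51 or less and still above every control. Without it the difference was 0.96 ± 0.15 (adjusted p = 0.00059). The call in ENU was lost without ENU replicate 5 or 6 or without any 1 of the 6 DMSO_pooled libraries, with an adjusted p of up to 0.068. With the replicate block 4 AKR probe sets were called in ENU, the others being 216594_PM_x_at (1.01, adjusted p = 0.046) and 211653_PM_x_at (0.70, adjusted p = 0.044), beside AKR1B10 and 204151_PM_x_at of AKR1C1.

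In the other 4 compounds AKR1C1 did not pass the call. The 5 H2O2 libraries were at 5.60, 6.29, 7.30, 5.76 and 5.66, all above every control (0.93 ± 0.26, adjusted p = 0.12), and 0.64 without the highest, replicate 3. With the replicate block H2O2 passed the call (0.93, adjusted p = 0.043). ETP had 5.98, 6.12 and 7.43, against 5.18, 5.72 and 7.06 in ETP_DMSO (0.63 ± 0.35, adjusted p = 0.36). The 2 high ETP libraries were the one labelled replicate 2, at 7.20, and replicate 3, and the groups overlapped. Without the library labelled ETP replicate 2 the difference was 0.49 (adjusted p = 0.43). The 5 MMC libraries were at 5.33, 6.01, 5.81, 5.75 and 5.94, with 4 above every control (0.58 ± 0.13, adjusted p = 0.22), and NCS had 5.09, 5.58 and 5.94, with 5 of 6 above every control (0.37 ± 0.13, adjusted p = 0.13). With the replicate block the adjusted p was 0.040 in MMC (0.55) and 0.0028 in NCS (0.37), both under 1.5-fold. The other bright AKR1C1 probe set, 216594_PM_x_at, gave less, with 0.30 in H2O2 (adjusted p = 0.57), 0.30 in ETP, 0.15 in NCS and 0.05 in MMC. In it H2O2, NCS and MMC each had 1 library below every control.

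**Figure D3:**
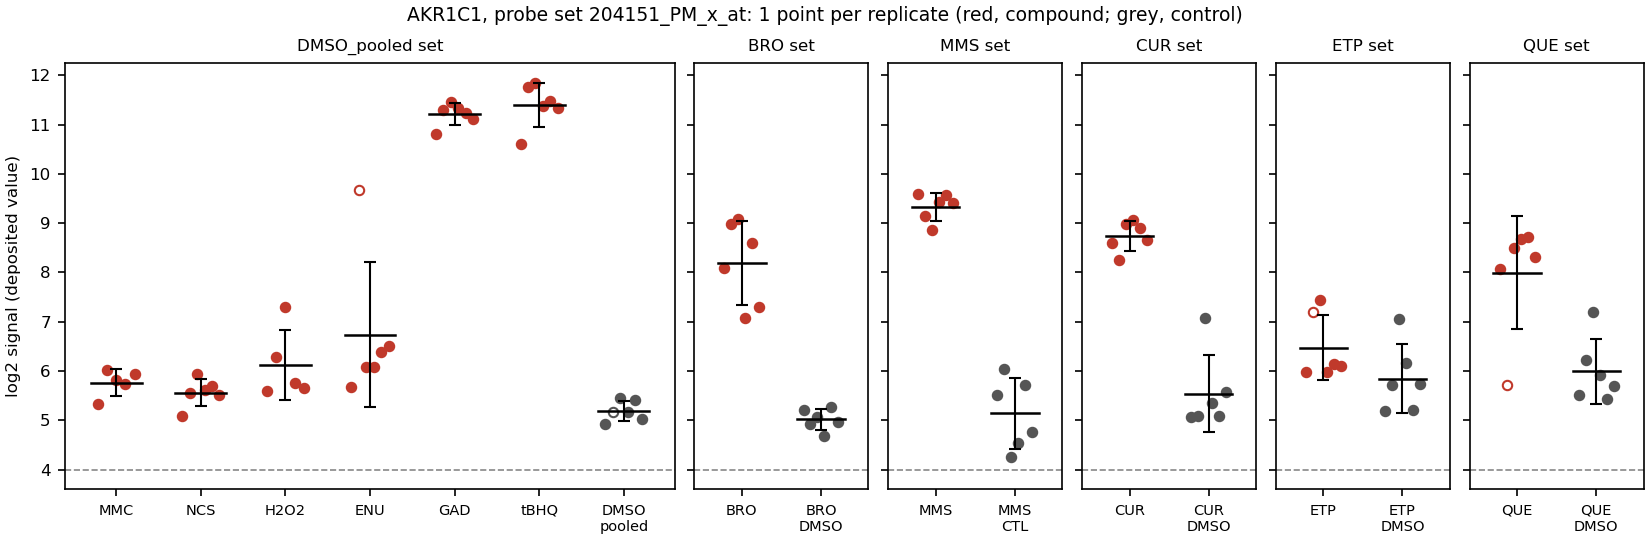
Log2 signal of AKR1C1 probe set 204151_PM_x_at in every replicate, drawn as for AKR1B10, with bars for mean ± SD and open circles for the same libraries. GAD and tBHQ lie from 10.60 to 11.85 against 4.92 to 5.45 in DMSO_pooled, ENU replicate 2 lies at 9.68, and the library labelled QUE replicate 2 lies at 5.71.

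The number-3 controls were high in AKR1C1 in 3 sets, at 7.08 in CUR_DMSO, 7.06 in ETP_DMSO and 7.21 in QUE_DMSO, and not in the others, where they were at 5.45 in DMSO_pooled, 5.07 in BRO_DMSO and 4.26 in MMS_CTL. The deviations of ETP_DMSO and QUE_DMSO from their group means correlated between libraries of the same number over the tested probe sets (r from 0.21 to 0.80), so separate origins of these controls cannot be assumed. Without the number-2 and number-3 libraries of both groups AKR1C1 differed by 2.80 in QUE (adjusted p = 8.6e-06) and by 0.48 in ETP (adjusted p = 0.18).

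Ordered by log2 fold change, AKR1C1 ran tBHQ, GAD, MMS, CUR, BRO, QUE, ENU, H2O2, ETP, MMC and NCS. GAD and MMS differed by 1.83 ± 0.55 (adjusted p = 0.010, with 12.4% of all probe sets called), and none of the other 9 neighbouring pairs was called. tBHQ and GAD differed by 0.20 (95% interval -0.57 to 0.96), and MMS and CUR by 0.99 (-0.09 to 2.08). BRO and QUE differed by 1.17 (0.08 to 2.25, adjusted p = 0.11), or 0.71 without the libraries labelled QUE replicate 2 and ETP replicate 2 (adjusted p = 0.31). The shares of all probe sets called were 26.8% for GAD and tBHQ, 4.87% for CUR and MMS, 3.65% for BRO and CUR, 14.6% for BRO and QUE, 14.3% for ENU and QUE, 9.47% for ENU and H2O2, 0% for ETP and H2O2, 0.122% for ETP and MMC and 0.287% for MMC and NCS.

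AKR1C2, the enzyme that inactivates dihydrotestosterone, could not be told apart from AKR1C1 here. Its probe set 209699_PM_x_at gave 5.74 ± 0.20 in tBHQ (adjusted p = 1.1e-09), 5.36 ± 0.14 in GAD (adjusted p = 1.4e-11), 3.40 ± 0.19 in MMS, 2.82 ± 0.29 in BRO, 2.60 ± 0.24 in CUR and 1.81 ± 0.43 in QUE, and 211653_PM_x_at gave 4.48 ± 0.26 in tBHQ, 4.21 ± 0.14 in GAD and from 1.09 to 2.51 in those 4. The order of the compounds in 209699_PM_x_at was that of AKR1C1 down to MMS, after which BRO came before CUR, and in 211653_PM_x_at BRO also came before MMS. Over the 11 compounds the log2 fold changes of the 4 probe sets with that suffix correlated with r from 0.9885 to 0.9985, and their deviations from group means over 100 replicates correlated with r from 0.87 to 0.96. These points share libraries, and 6 of the 11 share a control. ENU replicate 2 was also the highest of its group in both AKR1C2 probe sets, at 8.57 and 8.24, with the others at 5.37 and 6.53 or less.

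The tested probe sets of this pair without the x_at suffix were dim, and whether they are more specific was not examined. In GAD 1555854_PM_at, shared by AKR1C1 and AKR1C2, had 6.16, 6.81 and 7.57, against 2.29, 2.55 and 2.59 in DMSO_pooled, and in tBHQ 5.53, 6.20 and 7.30. All libraries of both compounds were above every control. The control mean of 2.51 was not well above background, so against the level of 4 the difference was at least 7.31-fold in GAD and at least 5.01-fold in tBHQ. The AKR1C1 probe set 1562102_PM_at had means of 6.24 in GAD and 5.43 in tBHQ, against 2.38 in DMSO_pooled, which is at least 4.72-fold in GAD and at least 2.70-fold in tBHQ. These values are given as a description with no test, since only GAD and tBHQ brought both probe sets past the filter. In the other 9 compounds both probe sets had group means under 4, including MMS, CUR and QUE, where the brighter AKR1C probe sets were called. ENU replicate 2 alone among the ENU libraries was over 4 in them, at 4.27 and 4.65.

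AKR1C3, which makes testosterone from androstenedione and also converts prostaglandins, was measured by 209160_PM_at and was bright in all groups. In GAD it had 9.36, 10.03 and 10.41 and in tBHQ 8.85, 10.12 and 10.40, against 7.01, 7.42 and 7.79 in DMSO_pooled. Every library of both compounds was above every control, with a log2 fold change of 2.57 ± 0.17 in GAD (adjusted p = 8.6e-08) and 2.57 ± 0.22 in tBHQ (adjusted p = 4.4e-06), and tBHQ replicate 1, at 8.85, lay below the other tBHQ libraries, at 10.06 or more. BRO had 8.53, 9.11 and 9.73, against 7.15, 7.21 and 7.54 in BRO_DMSO (1.86 ± 0.19, adjusted p = 4.5e-05). CUR had 8.29, 8.43 and 8.60, against 6.98, 7.32 and 7.69 in CUR_DMSO (1.10 ± 0.11, adjusted p = 0.00029). MMS had 8.23, 8.46 and 8.61, against 7.36, 7.48 and 7.83 in MMS_CTL (0.87 ± 0.10, adjusted p = 5.5e-05). The groups did not overlap in these 5 comparisons.

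QUE gave AKR1C3 values of 8.21, 8.54 and 8.83, against 7.48, 7.93 and 8.69 in QUE_DMSO, which overlapped. The difference of 0.54 ± 0.17 had an adjusted p of 0.035 but was under 1.5-fold, and it passed the call without the library labelled QUE replicate 2 (0.60, adjusted p = 0.016). ENU had 0.47 ± 0.18 (adjusted p = 0.066), and ETP, NCS, H2O2 and MMC had from 0.10 to 0.24, with none called. With the replicate block the adjusted p was 0.041 in ENU (0.47) and 0.038 in NCS (0.15), both under 1.5-fold. It stayed above 0.05 in ETP, H2O2 and MMC. In the order by fold change MMS followed GAD for AKR1C1, but for AKR1C3 it came behind BRO and CUR. In neither order were MMS and CUR called apart (in AKR1C3 CUR was higher by 0.23, 95% interval -0.29 to 0.75, adjusted p = 0.68). Between other neighbours in the AKR1C3 order, tBHQ and BRO differed by 0.71 (95% interval 0.19 to 1.23, adjusted p = 0.051) and BRO and CUR by 0.76 (0.24 to 1.28, adjusted p = 0.067).

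**Figure D4:**
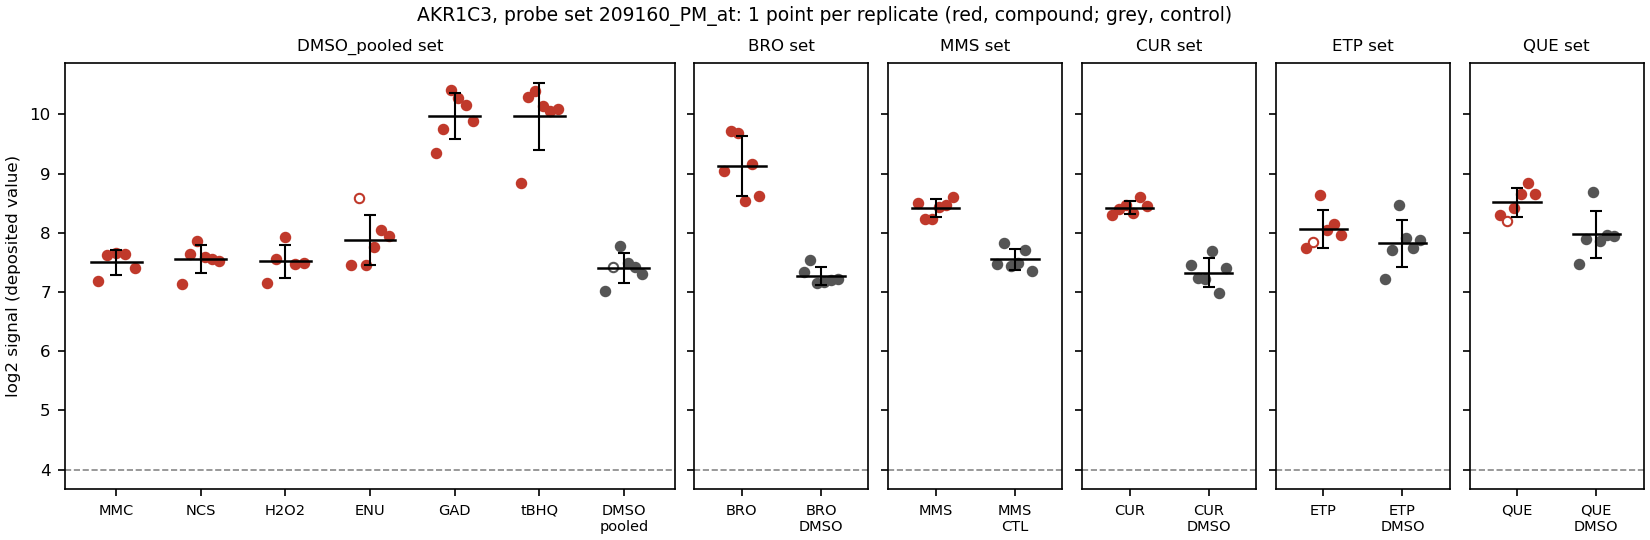
Log2 signal of AKR1C3 in every replicate, drawn as for AKR1B10, with bars for mean ± SD and open circles for the same libraries. GAD and tBHQ lie from 8.85 to 10.41 against 7.01 to 7.79 in DMSO_pooled, and tBHQ replicate 1 is the lowest of its group.

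AKR7A2, the member that acts on succinic semialdehyde, was not called in any compound. Its 2 probe sets had group means from 8.93 to 10.12 (214259_PM_s_at) and from 8.27 to 9.38 (202139_PM_at). In GAD 214259_PM_s_at had 9.18, 9.34 and 9.38, against 9.59, 9.74 and 9.95 in DMSO_pooled, and every GAD library was below every control. The difference was -0.44 ± 0.08 (adjusted p = 0.00032), and that of 202139_PM_at was -0.45 ± 0.09 (adjusted p = 0.00086), both under the 1.5-fold limit. 202139_PM_at also had -0.26 ± 0.07 in tBHQ (adjusted p = 0.018) and -0.23 ± 0.07 in BRO (adjusted p = 0.024), where 214259_PM_s_at had -0.20 (adjusted p = 0.096) and -0.12 (adjusted p = 0.25). Both CUR values, -0.29 and -0.34, missed the adjusted p, at 0.16 and 0.054, though all 6 CUR libraries were below every control in both probe sets. In the other compounds both probe sets were between -0.11 and 0.15.

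AKR1B10 and the AKR1C genes did not keep the same order of compounds. ENU stood at the top for AKR1B10 and behind QUE for AKR1C1, and ETP, with 2.44 for AKR1B10, had 0.63 for AKR1C1. MMS was the reverse, with 1.51 for AKR1B10 and 4.19 for AKR1C1. Over the 11 compounds AKR1B10 correlated with the 7 AKR1C probe sets with r from 0.24 to 0.26, and without the libraries labelled QUE replicate 2 and ETP replicate 2 its r with AKR1C1 was 0.24. Deviations from group means over 100 replicates gave r from -0.15 to 0.12 between AKR1B10 and these 7 AKR1C probe sets. Of the libraries that stood apart, DMSO_pooled replicate 2 was high in AKR1B10 and at 5.17 in AKR1C1, inside its group, while ENU replicate 2 was high in AKR1C1 and at 8.97 in AKR1B10, inside its group. AKR7A2 correlated negatively with the same 7 AKR1C probe sets over compounds, with r from -0.83 to -0.68, in which 6 of the 11 points share DMSO_pooled.

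**Figure D5:**
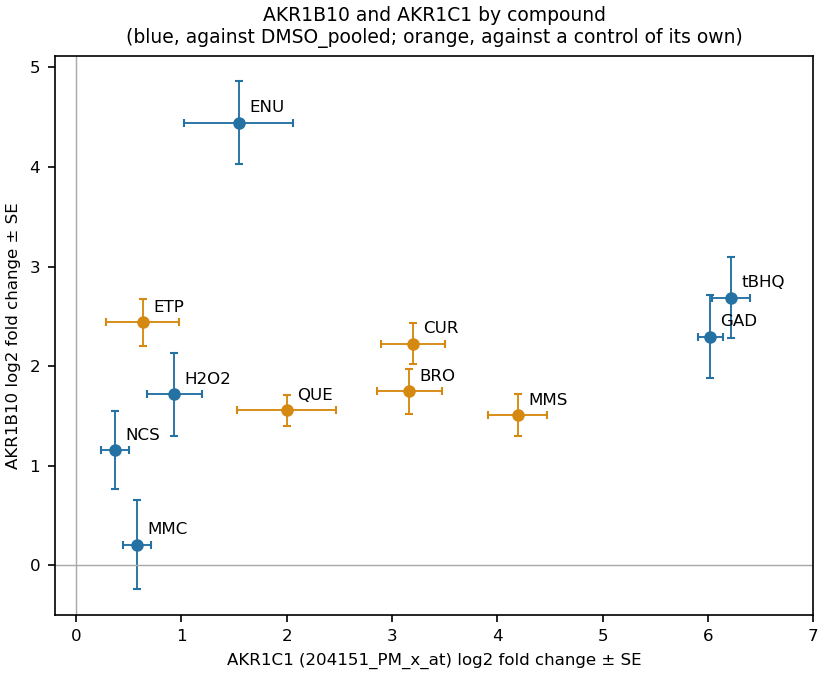
Log2 fold change of AKR1B10 (vertical) against that of AKR1C1 probe set 204151_PM_x_at (horizontal) for 11 compounds, bars for SE, with blue for compounds set against DMSO_pooled and orange for those with their own control. ENU stands alone at the top (4.44 and 1.55), tBHQ and GAD lie far to the right (6.22 and 6.02), and MMC and NCS lie near the origin.

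Other members of the superfamily gave 1 call. Of 9 such genes 3 were tested, and KCNAB1, a beta subunit of voltage-gated potassium channels, rose in GAD by 1.01 ± 0.11 (5.32 against 4.31 in DMSO_pooled, adjusted p = 5.2e-06 in limma), a compound in which 11.1% of all genes were called higher. KCNAB2, its relative, ranged from -0.43 to 0.39 and AKR7A3 from -0.21 to 0.19, with neither called. Without the library labelled QUE replicate 2, 1 of the 3 was called lower in QUE, against 9.66% of all genes.

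NRF2 target genes were taken from a list with no aldo-keto reductase in it. Of 21 tested, 18 rose under tBHQ, with a median log2 fold change of 1.31, followed by GAD with 15 (0.98), BRO with 15 (0.87), CUR with 8 (0.50), QUE with 5 (0.39), MMS with 5 (0.33) and ENU with 2 (0.21). Over all genes tested the share called higher was 11.1% for GAD, 6.35% for QUE, 5.37% for tBHQ, 4.76% for ENU, 4.39% for MMS, 2.43% for BRO and 1.05% for CUR. None rose in MMC, NCS, H2O2 or ETP, where 0.122%, 1.39%, 0.669% and 1.95% of all genes were called higher. Shares this low give few or no calls among 21 genes, so nothing is read from their absence. SLC7A11, the cystine transporter, rose by 3.27 in GAD, 2.91 in tBHQ, 2.22 in BRO, 1.87 in CUR and 1.71 in MMS, and it fell in NCS by 1.40, where 0.825% of all genes were called lower. HMOX1, heme oxygenase, rose by 4.49 ± 0.11 in tBHQ, 4.17 ± 0.22 in BRO, 2.63 ± 0.16 in GAD, 1.91 ± 0.35 in CUR, 1.51 ± 0.39 in QUE and 0.78 ± 0.16 in ENU. NQO1, the quinone reductase, rose by 1.45 ± 0.11 with BRO, 1.38 ± 0.08 with GAD, 1.32 ± 0.08 with MMS, 1.31 ± 0.08 with tBHQ, 1.05 ± 0.08 with CUR and 0.92 ± 0.11 with ENU. GCLM, the regulatory subunit of the enzyme that starts glutathione synthesis, rose in tBHQ, GAD and BRO by 1.57, 1.26 and 1.81, and TXNRD1, thioredoxin reductase, rose in tBHQ, GAD, BRO, CUR and QUE by 1.21, 0.98, 1.04, 0.90 and 0.69. In MMS, where AKR1C1 rose by 4.19, SLC7A11 and NQO1 were among the 5 that rose, while HMOX1 (-0.42) and GCLM (0.16) had an adjusted p above 0.05 and TXNRD1 (0.38, adjusted p = 0.0034) was under 1.5-fold. Without the library labelled QUE replicate 2, 9 of 21 rose in QUE (9.14% of all genes), and without the library labelled ETP replicate 2, 1 fell in ETP (1.25% of all genes).

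Among other enzymes that reduce or oxidise carbonyls there were calls in both directions. Of 16 tested, 5 rose in tBHQ, 3 rose and 4 fell in GAD, 3 rose and 2 fell in MMS, 1 rose and 3 fell in QUE, 1 rose and 1 fell in ENU and in BRO, 1 rose in CUR, and none was called in MMC, NCS, H2O2 or ETP. Over all genes the share called lower was 15.0% for GAD, 6.51% for QUE, 6.45% for MMS, 6.06% for ENU, 4.91% for BRO, 4.41% for tBHQ and 0.738% for CUR, beside the shares called higher given above. In NCS, ETP, H2O2 and MMC it was 0.825%, 0.538%, 0.139% and 0%, so nothing is read from the lack of calls there. PTGR1, prostaglandin reductase, rose by 1.46 ± 0.10 in tBHQ, 1.36 ± 0.09 in GAD and 0.77 ± 0.11 in MMS. ALDH3A2, a fatty aldehyde dehydrogenase, rose by 1.32 ± 0.12 in MMS, 0.91 ± 0.11 in BRO, 0.78 ± 0.10 in tBHQ, 0.62 ± 0.09 in GAD and 0.59 ± 0.12 in CUR. CBR1, carbonyl reductase, rose by 0.77 ± 0.10 in tBHQ, while CBR3, its relative, fell by 1.03 in GAD and by 0.89 in QUE. ALDH1A3, a retinal dehydrogenase, fell by 2.51 in GAD, 1.56 in BRO, 1.29 in MMS and 1.23 in QUE. Without the library labelled QUE replicate 2, 2 rose and 4 fell in QUE, against 9.14% and 9.66% of all genes.

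The genes whose log2 fold changes over the 11 compounds were most like each member were taken among 3365 genes outside the superfamily with a span of 1 or more, and 6 of the 11 points share a control. For AKR1C1 they were GLA, alpha-galactosidase (r = 0.99), PTGR1 (0.97) and WDR53 (0.96). For AKR1C3 they were SRXN1, sulfiredoxin (0.98), WDR53 (0.98) and TDP2 (0.97). For AKR1B10 they were PLPP5 (0.82), ZFP36L2 (0.81) and DYRK3 (0.78). The log2 fold change of GLA was 1.65 in tBHQ, 1.54 in GAD, 1.13 in MMS and 0.97 in BRO, over a narrower range than that of AKR1C1. Without the libraries labelled QUE replicate 2 and ETP replicate 2 the 3 genes nearest to AKR1C1 and to AKR1C3 were the same, and CRYAB (0.77) took the place of ZFP36L2 for AKR1B10.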

How the data were processed

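The deposited values are log2 signals per probe set from HT HG-U133+ PM arrays, which the authors made with GCRMA in Partek, per the submitters' processing notes, with no version given in the sources used here. The levels of the 6 sets of arrays differ, so each compound was set against the control of its own set, with compound minus control as the log2 fold change. The members, gene lists and tests were chosen with earlier results of these data known. Of 54613 probe sets, 25479 with a mean of 4 or more in at least 1 of 17 groups were fitted with limma 3.58.1 in R 4.3.3, 1 fit per comparison, with Benjamini-Hochberg adjustment over all of them. Errors of fold changes are SE, those of levels SD. The arrays ETP_DMSO 2 and 2-2 were averaged as 1 replicate, since they differed by an SD of 0.179, against 0.235 or more for other pairs, leaving 100 replicates of 101 arrays. Probe sets were named from the array's annotation. Genes named beyond the members are those of the lists and, for each member, the 3 with the highest Pearson r over compounds. A gene of a list was taken by its brightest probe set. The fit was tested on simulated data. Alternatives were the filter, array scaling, 1 probe set a gene, 1 fit of all groups, trended variances, the fold minimum, the replicate block and leaving out each replicate, and, after the data were seen, leaving out the number-2 libraries in ENU and the number-2 and number-3 libraries in ETP and QUE.

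Libraries of the same number deviated together in 8 of the 11 comparisons, all but MMS, ETP and QUE, with every correlation above 0.1, and the numbers come from the labels. In these 3 comparisons at least 1 pair was below that, down to -0.29, 0.06 and 0.09. RefSeq promoter windows (GRCh38.p14) were aligned with Biopython 1.88.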

Additional observations from a re-analysis of the deposited data

Results flagged for a closer look

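In 21 of 170 groups of a probe set, 1 library lay apart from the rest of its group by Dixon's test. Chance alone gives about 1 in 20 for a single test. The 170 tests share libraries and are not independent, so the 21 are not read as an excess. Of the 21, 6 were the library ENU replicate 2, the highest of its group in every AKR1C1 and AKR1C2 probe set tested. It was at 9.68 in 204151_PM_x_at (next 6.51), 8.93 in 216594_PM_x_at (next 6.56), 4.27 in 1562102_PM_at (next 2.78), 4.65 in 1555854_PM_at (next 2.73), 8.24 in 211653_PM_x_at (next 6.53) and 8.57 in 209699_PM_x_at (next 5.37). The library labelled QUE replicate 2 was the lowest of QUE in AKR1C1 204151_PM_x_at, at 5.71 (next 8.07), and in AKR1C2 209699_PM_x_at, at 4.83 (next 6.76). The library labelled ETP replicate 2 was the highest of ETP in 1562102_PM_at, at 2.90 (next 2.59), under the level of 4.

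tBHQ replicate 1 was the lowest of its group in AKR1C3, at 8.85 (next 10.06), in AKR1C1 216594_PM_x_at, at 9.47 (next 10.52), and in AKR1C2 209699_PM_x_at, at 9.39 (next 10.32). MMC replicate 1 was the lowest in AKR1C1 216594_PM_x_at, at 5.16 (next 5.70), and in AKR1C2 209699_PM_x_at, at 4.51 (next 4.70). In AKR1B10, MMC replicate 4 was the lowest at 3.89 (next 4.79), ETP replicate 3 the lowest at 5.49 (next 6.48) and DMSO_pooled replicate 2 the highest at 6.67 (next 4.40).

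Among the other controls CUR_DMSO replicate 3 was the highest in AKR1C1 204151_PM_x_at, at 7.08 (next 5.58). In AKR1C2 209699_PM_x_at ETP_DMSO replicate 3 was at 6.60 (next 5.25) and QUE_DMSO replicate 3 at 6.27 (next 5.04). DMSO_pooled replicate 5 was the lowest in 1555854_PM_at, at 2.29 (next 2.53), under the level of 4.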

How the results depend on the processing

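Counts here are over all 10 tested probe sets, the 2 that passed the filter only through GAD and tBHQ included. Of their 45 calls, 43 held under every alternative that tested them, and none changed direction. The 2 that were lost under some were AKR1C1 204151_PM_x_at in ENU, given in the report, and 1555854_PM_at in QUE, whose means were both under 4. With 1 fit of all 17 groups 1 probe set was called higher in NCS, 1 in H2O2 and 5 in ENU, against 0, 0 and 2. With the replicate block 1 was called in NCS, 1 in H2O2 and 4 in ENU, and no other compound's number of calls changed by more than 1.5 times. With no filter 1 was called in ENU. With 1 probe set a gene 4 were called in GAD, in tBHQ and in BRO, 3 in QUE and 26 over all compounds, against 45, because fewer probe sets were tested. With no fold minimum 2 were called lower in GAD, 1 in tBHQ and 1 in BRO, 4 in all and all of AKR7A2. Leaving out 1 replicate at a time gave from 0 to 1 called higher in NCS and in H2O2, the 1 without DMSO_pooled replicate 2, from 1 to 3 in ENU, 6 to 7 in MMS and 5 to 7 in QUE, and the numbers in the other 6 compounds did not move. The cause of the other changes was not tested. Signal near background limits 1562102_PM_at and 1555854_PM_at outside GAD and tBHQ. The bright probe sets of AKR1C1 and AKR1C2 could not be told apart, and their probe sequences were not examined.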

Other observations

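The mean log2 signal of the 21 NRF2 target genes in the libraries that stood apart is given here as values only. ENU replicate 2 had 9.41, the highest of ENU, where the others had 8.91 to 9.30, and in it HMOX1 was at 8.53, against 7.43 to 8.01 in the other ENU libraries. H2O2 replicate 3, the highest of its group in AKR1C1, had 9.28, with the next at 8.87. HMOX1 was at 9.27 in it, against 7.10 to 7.22 in the other H2O2 libraries. The library labelled ETP replicate 2 had 9.67, with the next at 9.30, and the library labelled QUE replicate 2 had 9.12, with the next lowest at 9.69. Among the number-3 controls QUE_DMSO had 9.33, with the next at 9.17, and ETP_DMSO had 9.32, with the next at 9.24. CUR_DMSO replicate 3, also high in AKR1C1, had 8.65, below CUR_DMSO replicate 4 at 8.66. DMSO_pooled replicate 2, high in AKR1B10, had 8.91, inside its group at 8.80 to 8.99.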
